A study of Homo sapiens with 9 samples.

Results

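The mitochondrial carriers of the SLC25 family were examined in the established human B-lymphocyte line P493-6 across 3 labelled levels of the transcription factor MYC. Members were the genes whose symbol starts with SLC25A and which were read by a probe set that the platform annotation ties to that 1 symbol, with pseudogenes and antisense genes left out. This rule gave 96 probe sets of 54675 on the array and 45 genes of 19775, and used no measured value, but the family was chosen with earlier results of these data known. Each gene was represented by its probe set with the highest mean log2 value over the 9 arrays, and 18 genes had 1 probe set while 27 had several. SLC25A6 and SLC25A52 were not analysed here.

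The 9 arrays carried total RNA from the same line, 4 labelled high Myc expression, 3 low Myc expression and 2 no Myc expression. The labels give no agent, time or culture, and whether replicates were separate cultures is not stated, so p-values reflect only how these arrays vary, perhaps for technical reasons. As background, P493-6 carries a MYC gene that tetracycline represses and a form of the Epstein-Barr virus factor EBNA2 that depends on estrogen, and it is a single line, so differences between donors are outside the design. The values were intensities made comparable across arrays before deposit, so each difference is one relative to the rest of the array.

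Most SLC25 proteins sit in the inner mitochondrial membrane and exchange 1 metabolite for another between the matrix and the cytosol. They carry ADP and ATP, phosphate, amino acids, organic acids, nucleotides and cofactors, and the oxidation of fuels, nucleotide synthesis and haem synthesis all depend on them. The proteins are made in the cytosol and inserted by the TIM22 pathway, a chain of chaperones and a membrane complex that handles carrier proteins. MYC is a transcription factor known for raising growth and metabolic genes, and with its partner MAX it binds the sequence CACGTG.

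Array medians were 75.3 to 80.3 in intensity, and arrays correlated at 0.976 to 0.992 within groups and 0.917 to 0.982 between groups across genes. MYC itself read 12755, 11326, 15404 and 12186 on the high Myc arrays, 2126, 2526 and 1443 on the low Myc arrays and 2803 and 416 on the no Myc arrays. Against its label, the library labelled no Myc replicate 1 thus held more MYC than every low Myc array. It is called by its label throughout. In the limma fit MYC was called higher in high than in no Myc (3.57 in log2, adjusted p = 0.00252). It was also called higher in high than in low Myc (2.70, adjusted p = 0.0321). Between low and no Myc its difference of 0.87 was not called (adjusted p = 0.484), so MYC itself was not shown to differ there. Low Myc replicate 3 was the lowest low Myc array for 28 of the 45 carriers (62.2%), against 38.4% of all genes. Among genes called higher in low than in no Myc, it was the lowest for 10 of 10 carriers. The like share of all 2228 such genes was 86.6%, so this position was not particular to the carriers. The 5 measured B-cell markers summed to 7472 to 14322 in high Myc, 8959 to 10073 in low Myc and 20904 to 28141 in no Myc, and all 5 were called lower with high Myc than with no Myc. With the median of probe sets the calls of CD79B (-0.02, adjusted p = 0.981) and CD22 (-1.10, adjusted p = 0.051) were lost. CD79B differed by 0.41 where probe sets that can match several transcripts were avoided (adjusted p = 0.623). Of the 6 myeloid markers, the summed intensity was 194 to 246 in high Myc, 189 to 209 in low Myc and 519 to 954 in no Myc, and LYZ was called lower in both groups than in no Myc. Its log2 differences were -3.85 in high Myc and -4.44 in low Myc, or -0.32 and -0.38 where probe sets that can match several transcripts were avoided. The 6 T and NK cell markers summed to 629 to 785 in high Myc, 575 to 689 in low Myc and 695 to 759 in no Myc, and none was called. The part of these shifts in the results below was not tested.

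Carrier genes were more often called higher than lower in both high and low Myc against no Myc, with directions that rest on the labels. Of the 45 genes, 13 (28.9%) were higher with high Myc than with no Myc and 2 (4.44%) were lower, at an adjusted p under 0.05. Over all 19775 genes the shares were 14.2% higher and 9% lower. Between low Myc and no Myc, 10 carriers (22.2%) were higher and 1 (2.22%) was lower, against 11.3% and 8.55% of all genes. Between high and low Myc, 2 carriers (4.44%) were higher and 0 lower, against 2.33% and 1.27% of all genes. At an unadjusted p under 0.05 this last comparison had 6 carriers higher and 4 lower, and the share over all genes at that threshold was not computed. The median difference of the 45 genes was 0.19 in log2 between high and no Myc, 0.17 between low and no Myc and 0.06 between high and low Myc, while the medians of all genes were -0.01, 0.00 and 0.00. In total 18 carriers passed the test in at least 1 comparison and 27 in none, and the like count over all genes was not made. The 2 comparisons with no Myc, which share the 2 no Myc arrays, both called 8 carriers, all of them higher. Of all 19775 genes, 1888 were called higher in both. In bulk RNA, fewer cells expressing a gene and less of its RNA per cell cannot be told apart.

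The counts against no Myc depended on single libraries. In high against no Myc, between 10 and 16 carriers were higher when 1 array was left out, and the count was 11 with the library labelled no Myc replicate 1 left out. In low against no Myc, 4 were higher without that library, 5 without no Myc replicate 2, 6 without low Myc replicate 1 or 2, and 14 without low Myc replicate 3. The count over all genes moved too. In high against no Myc it was 2805 higher genes with all arrays. It was 2401 to 3022 when 1 high or low Myc array was left out. Leaving out either no Myc array gave a count over all genes below that range. It was 2228 higher genes in low against no Myc with all arrays, 1021 without no Myc replicate 1, 1400 without no Myc replicate 2, 1563 and 1779 without low Myc replicates 1 and 2, and 2840 without low Myc replicate 3.

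**Figure D1:**
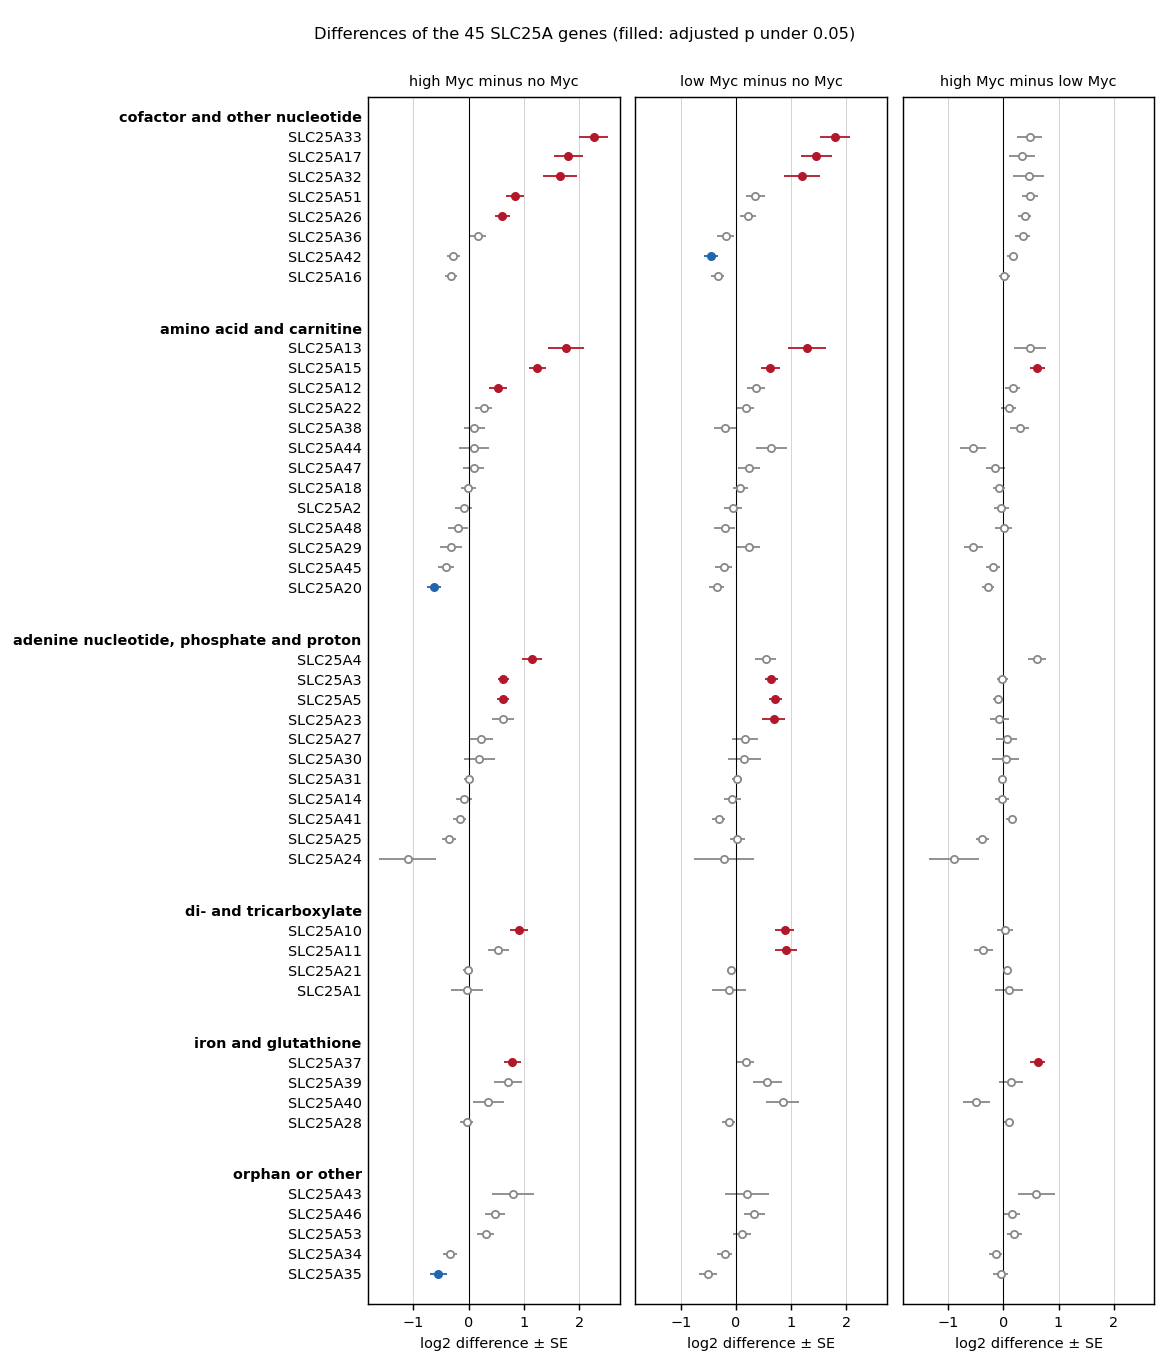
Differences of the 45 SLC25A genes in log2 units (points) with their standard errors (lines), grouped by what the carrier moves, for high minus no Myc, low minus no Myc and high minus low Myc. Filled points passed an adjusted p of 0.05, red for higher and blue for lower. SLC25A33 lies farthest to the right in both comparisons with no Myc, at 2.26 and 1.79.

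For the promoters, RefSeq windows of 300 bases on GRCh38.p14, from 250 bases before to 50 after the gene start, were taken by symbol for 38 of the 45 genes. Member windows on 1 chromosome were left out by rule, while the shares over all genes and windows used every window. The promoters of SLC25A2, SLC25A16, SLC25A30, SLC25A32, SLC25A35, SLC25A37 and SLC25A41 were not analysed here. The only motif searched was CACGTG, which reads the same on both strands. It was present in 9 of the 38 genes (23.7%) and in 8.77% of 27305 genes with a window, or 7.26% of 35116 windows. Among genes called higher than no Myc in at least 1 comparison it was in 4 of 13 (30.8%), namely SLC25A33, SLC25A13, SLC25A26 and SLC25A51. Among genes called lower it was in 0 of 2, and among genes called in neither comparison in 5 of 23 (21.7%). A match is a description of these letters and not a binding site. The windows of 3 carriers that rose in high Myc are shown, with that of SLC25A31, an ADP/ATP carrier of the testis, which has 4 copies. All are written 5′ to 3′ on the strand of the gene, with the motif in capitals. The first copy begins 26 bases before the start in SLC25A33 (chr1:9539215-9539514, plus strand), 154 in SLC25A13 (chr7:96322049-96322348, minus strand), 59 in SLC25A51 (chr9:37904078-37904377, minus strand) and 94 in SLC25A31 (chr4:127730150-127730449, plus strand).
SLC25A33: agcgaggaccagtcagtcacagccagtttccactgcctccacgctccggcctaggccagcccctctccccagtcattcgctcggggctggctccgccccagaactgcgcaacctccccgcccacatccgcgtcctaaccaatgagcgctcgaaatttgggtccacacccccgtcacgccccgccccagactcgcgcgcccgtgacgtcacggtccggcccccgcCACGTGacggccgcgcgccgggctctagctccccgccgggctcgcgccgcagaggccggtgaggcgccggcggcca
SLC25A13: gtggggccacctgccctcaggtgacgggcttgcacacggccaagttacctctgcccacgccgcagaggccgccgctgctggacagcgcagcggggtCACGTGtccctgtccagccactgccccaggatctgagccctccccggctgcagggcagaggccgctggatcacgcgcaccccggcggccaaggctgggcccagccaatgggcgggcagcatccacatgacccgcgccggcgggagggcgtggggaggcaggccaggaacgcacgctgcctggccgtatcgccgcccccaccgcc
SLC25A51: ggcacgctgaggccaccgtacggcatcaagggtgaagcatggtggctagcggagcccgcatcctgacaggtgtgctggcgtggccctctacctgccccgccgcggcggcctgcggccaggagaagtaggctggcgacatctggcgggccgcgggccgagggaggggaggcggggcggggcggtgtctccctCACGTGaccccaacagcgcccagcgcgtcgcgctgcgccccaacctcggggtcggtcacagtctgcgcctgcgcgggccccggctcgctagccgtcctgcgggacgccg
SLC25A31: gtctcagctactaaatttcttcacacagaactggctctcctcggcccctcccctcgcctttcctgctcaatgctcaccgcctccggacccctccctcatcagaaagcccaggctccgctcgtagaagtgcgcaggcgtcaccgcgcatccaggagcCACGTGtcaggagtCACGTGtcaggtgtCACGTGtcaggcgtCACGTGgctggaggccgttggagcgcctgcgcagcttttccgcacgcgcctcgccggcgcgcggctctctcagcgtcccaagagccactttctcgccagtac
SLC25A31, with the most copies, read 12.2, 12.4, 12.2 and 12.5 in high Myc, 12.4, 12.6 and 12.4 in low Myc and 12.995 and 11.7 in no Myc, close to the lowest intensity in the data, 10.1. Its groups overlapped, with a log2 difference of 0.00 between high and no Myc (adjusted p = 0.994).

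The carriers of cofactors and of nucleotides other than ATP included the 2 highest differences of the family, those of SLC25A33 and SLC25A17. Of these 8 genes, 5 rose in high Myc against no Myc and 0 fell, and in low Myc 3 rose and 1 fell. SLC25A33 (Entrez gene 84275), which brings pyrimidine nucleotides into the matrix, read 762, 1005, 866 and 705 on the high Myc arrays, 669, 783 and 402 on the low Myc arrays and 199 and 149 on the no Myc arrays. Every high and low Myc array read above both no Myc arrays, and low Myc replicate 3 was the lowest of the 7. The log2 difference from no Myc was 2.26 ± 0.26 (SE) in high Myc (adjusted p = 0.000436) and 1.79 ± 0.28 in low Myc (adjusted p = 0.00237). On the linear scale it was 4.81-fold higher in high Myc and 3.46-fold higher in low Myc. Both calls held in each of the 9 fits that left out 1 array. SLC25A36, the other pyrimidine nucleotide carrier, read 972 to 1098 in high Myc, 662 to 971 in low Myc and 866 to 932 in no Myc, and passed the test in no comparison.

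SLC25A17 (Entrez gene 10478), a carrier of CoA, FAD and NAD in the peroxisome membrane and so outside the mitochondrion, read 534, 768, 816 and 565 in high Myc, 530.1, 708 and 373 in low Myc and 208 and 172 in no Myc. All high and low Myc arrays lay above both no Myc arrays. It rose by 1.80 ± 0.26 in log2 in high Myc (adjusted p = 0.00122) and by 1.45 ± 0.28 in low Myc (adjusted p = 0.00627), though the second was lost without no Myc replicate 2 (adjusted p = 0.0537). Its other probe set was also called in both comparisons, with differences of 0.60 and 0.44.

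SLC25A32 (Entrez gene 81034), which moves folate and is also linked to FAD, read 1301, 1363, 1439.5 and 1117 in high Myc, 1187, 1273 and 561 in low Myc and 502 and 341 in no Myc. The groups did not overlap against no Myc, although low Myc replicate 3 lay close to no Myc replicate 1. Its log2 difference was 1.65 ± 0.31 in high Myc (adjusted p = 0.0045), and this call was lost without no Myc replicate 2 (adjusted p = 0.0551). In low Myc it was 1.19 ± 0.33 (adjusted p = 0.0328), a call lost in 6 of the 9 fits without 1 array, those that left out high Myc replicates 1 or 3, low Myc replicates 1 or 2, or one of the no Myc arrays.

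SLC25A51, the NAD carrier, and SLC25A26, the carrier of S-adenosylmethionine, rose in high Myc. SLC25A51 read 304, 217, 276 and 283 in high Myc, 203, 158 and 217 in low Myc and 159.8 and 140.4 in no Myc, a log2 difference of 0.84 from no Myc (adjusted p = 0.00611). The high Myc arrays stood above the no Myc arrays, and the low Myc arrays overlapped with both other groups. The call was lost without no Myc replicate 2 (adjusted p = 0.0625). SLC25A26 differed by 0.61 ± 0.14 (adjusted p = 0.0116), a call lost once the library labelled no Myc replicate 1 was left out (0.115 as adjusted p). In low Myc the differences of the 2 genes from no Myc were 0.35 and 0.22, and neither passed.

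SLC25A42, a carrier of CoA, was the 1 member that fell in low Myc. It read 218, 190.1, 190.2 and 236 in high Myc, 183, 193 and 179 in low Myc and 244 and 261 in no Myc, with all low Myc arrays below both no Myc arrays. The log2 difference was -0.45 ± 0.12 between low and no Myc (adjusted p = 0.0283). It was lost when low Myc replicate 1, low Myc replicate 3 or a no Myc array was left out, and the median of its 4 probe sets gave -0.04. SLC25A16, which is linked to CoA transport, had probe sets that differed in sign. Its chosen probe set, of a kind that can match several transcripts, read 1508, 1209.5, 1295 and 1360.4 in high Myc, 1265, 1363 and 1341 in low Myc and 1559.6 and 1779 in no Myc (log2 difference -0.32 in high Myc, adjusted p = 0.0798). The high Myc arrays were all below the no Myc arrays there. A second of its 4 probe sets read 88.4, 81.8, 70.2 and 71.6 in high Myc, 95.0, 87.1 and 88.4 in low Myc and 121 and 102 in no Myc and fell by 0.52 in high Myc (adjusted p = 0.0197 over all probe sets), while the remaining ones differed by 0.13 and 0.19 and did not pass.

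Of the 13 genes grouped here as carriers of amino acids and carnitine, 3 rose and 1 fell in high Myc against no Myc. In low Myc 2 rose, and 1 was higher in high than in low Myc. SLC25A13 (Entrez gene 10165, citrin), an aspartate-glutamate carrier of the malate-aspartate shuttle whose promoter is shown above, read 248, 425, 373 and 255 in high Myc, 255, 319 and 144 in low Myc and 104 and 84.7 in no Myc. No high or low Myc array overlapped with the no Myc arrays. The log2 difference from no Myc was 1.76 ± 0.33 in high Myc (adjusted p = 0.00417) and 1.28 ± 0.35 in low Myc (adjusted p = 0.0296). The low Myc call was lost when low Myc replicate 1, low Myc replicate 2 or a no Myc array was left out. The other probe sets of the gene differed by 0.48 and -0.19 between high and no Myc, neither called, and with the median of the 3 the gene differed by 0.86 (adjusted p = 0.064). Its paralog SLC25A12 (aralar) read 624 to 757 in high Myc, 481 to 707 in low Myc and 452 to 479 in no Myc and rose by 0.53 in high Myc (adjusted p = 0.0371). That call was lost in 6 of the 9 fits without 1 array, those without high Myc replicates 2, 3 or 4, low Myc replicate 1 or either no Myc array.

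SLC25A15 (Entrez gene 10166), the ornithine carrier that links mitochondria to the urea cycle and to polyamine synthesis, followed the order of the Myc labels. It read 363, 355, 446 and 366 in high Myc, 272, 279.7 and 202 in low Myc and 169 and 154 in no Myc, and no pair of groups overlapped. It rose by 1.24 ± 0.16 in log2 in high Myc (adjusted p = 0.000599) and by 0.62 ± 0.16 in low Myc (adjusted p = 0.0263), both against no Myc. Both of its probe sets passed in both comparisons. High against low Myc gave 0.62 ± 0.14 (adjusted p = 0.0469), which was lost in 7 of the 9 fits without 1 array, all but those that left out replicate 2 of high Myc or of low Myc, and which missed the threshold over all probe sets (adjusted p = 0.0686). The low Myc call was lost when low Myc replicate 1, low Myc replicate 2 or a no Myc array was left out. SLC25A2, the other ornithine carrier, stayed between 28.8 and 41.3 on all arrays and passed nowhere.

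SLC25A20, which brings acylcarnitines into the matrix for fatty acid oxidation, fell in high Myc. It read 233, 244, 194 and 195 in high Myc, 262, 245 and 277 in low Myc and 313 and 356 in no Myc, with no overlap between either Myc group and no Myc. The log2 difference was -0.63 ± 0.13 in high Myc (adjusted p = 0.00616), lost without no Myc replicate 2 (adjusted p = 0.0662), and -0.35 in low Myc (adjusted p = 0.111). The other 9 members, among them the glutamate carriers SLC25A22 and SLC25A18, the glycine carrier SLC25A38, the branched-chain amino acid carrier SLC25A44 and the basic amino acid carrier SLC25A29, passed in no comparison. SLC25A47 and SLC25A48 were also among them, at 0.09 and -0.20 in high Myc. Their place in this group rests on the list of roles and not on a settled substrate. The differences of all 9 ran from -0.41 (SLC25A45) to 0.27 (SLC25A22) in high Myc and from -0.22 (SLC25A45) to 0.64 (SLC25A44) in low Myc. A second probe set of SLC25A45 was called lower in low Myc at -0.78, with intensities of 15.0, 16.1 and 13.4 in low Myc and 33.5 and 19.3 in no Myc, near the lowest in the data.

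**Figure D2:**
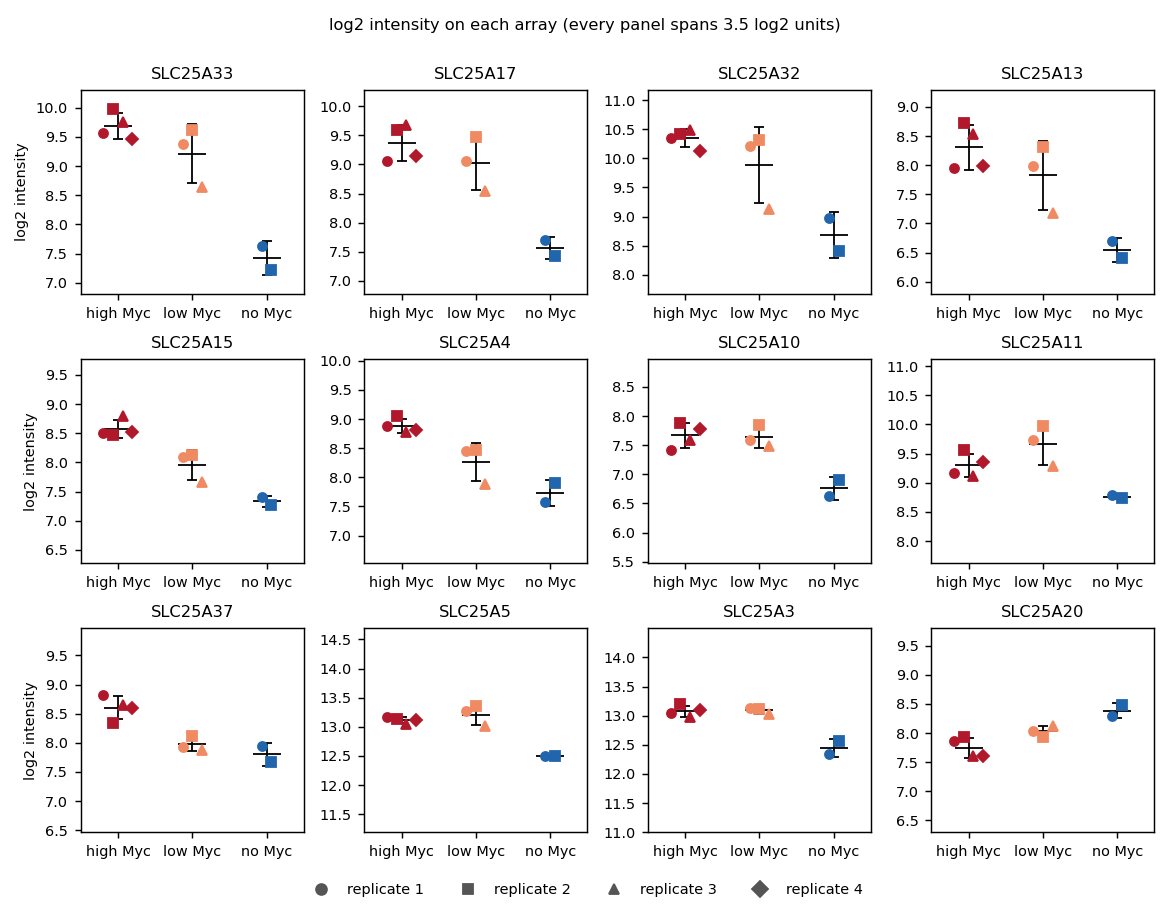
log2 intensity of 12 carriers on each array, with high, low and no Myc from left to right, marker shape for the replicate number, and bars for the mean ± SD (n = 4, 3 and 2). Each panel spans the same range of 3.5 log2 units. Low Myc replicate 3 (triangle) is the lowest low Myc array in every panel but that of SLC25A20, where it is the highest.

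The carriers of adenine nucleotides, phosphate and protons numbered 11, of which 3 rose in high Myc against no Myc and 3 in low Myc, with 0 falling in either. SLC25A5 (Entrez gene 292), a main ADP/ATP carrier, read 9257, 9037, 8431 and 8849 in high Myc, 9828, 10458 and 8242 in low Myc and 5768 and 5762 in no Myc. All high and low Myc arrays lay above both no Myc arrays, and the high and low Myc groups overlapped. The log2 differences from no Myc were 0.62 ± 0.11 (adjusted p = 0.00313) and 0.71 ± 0.12 (adjusted p = 0.00293). SLC25A3 (Entrez gene 5250), the phosphate carrier that feeds ATP synthesis, read 8411, 9429, 8047 and 8722 in high Myc, 8956, 8914 and 8329.8 in low Myc and 5181 and 6035 in no Myc, with the same pattern of overlap. Its differences were 0.63 ± 0.10 in high Myc (adjusted p = 0.00234) and 0.64 ± 0.11 in low Myc (adjusted p = 0.00376). The calls of SLC25A5 and SLC25A3 held in all 9 fits without 1 array. The SLC25A3 probe set is of a kind that can match several transcripts, and its second, dim probe set was called in high Myc (0.51) but not in low Myc (0.35, adjusted p = 0.157 when that probe set stood for the gene). ADP/ATP carriers have near-identical copies and pseudogenes, so the intensity of SLC25A5 may include other transcripts.

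SLC25A4 (Entrez gene 291), the ADP/ATP carrier known from heart and skeletal muscle, read 469, 529, 438 and 449 in high Myc, 351, 352 and 237 in low Myc and 190.1 and 238 in no Myc. High Myc stood above both other groups, and low Myc replicate 3 lay just under no Myc replicate 2. The log2 difference was 1.14 ± 0.18 in high Myc (adjusted p = 0.00172) and 0.54 ± 0.19 in low Myc (adjusted p = 0.0856), and high against low Myc gave 0.61 ± 0.16 (adjusted p = 0.0759). A second, dim probe set of the gene differed by 0.02 in high Myc. SLC25A23, an ATP-Mg/phosphate carrier, read 448 to 647 in high Myc, 467 to 636 in low Myc and 289.9 to 412 in no Myc and rose by 0.69 in low Myc (adjusted p = 0.0478). Its call was lost in 6 of the 9 fits without 1 array, all but those without high Myc replicate 4, low Myc replicate 3 or no Myc replicate 2. Of its relatives, SLC25A24 read 93.5, 90.3, 32.5 and 70.9 in high Myc, 174, 71.2 and 149.8 in low Myc and 207 and 98.3 in no Myc, and its difference of -1.10 in high Myc had the widest error of the family, 0.51 (adjusted p = 0.192). SLC25A25, another relative, read 192, 222, 222 and 204 in high Myc, 299.9, 237 and 285 in low Myc and 247 and 292 in no Myc. The high Myc arrays lay below all others, but the difference of -0.36 from no Myc did not pass (adjusted p = 0.0819), nor did that of -0.38 from low Myc (adjusted p = 0.11). SLC25A41, a further relative, differed from no Myc by -0.16 in high Myc and -0.31 in low Myc (adjusted p = 0.444 and 0.125). The carriers related to uncoupling proteins, SLC25A14, SLC25A27 and SLC25A30, differed by -0.09 to 0.23 in high Myc and passed nowhere.

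Of the 4 carriers of di- and tricarboxylates, SLC25A10 rose in both groups and SLC25A11 in low Myc. SLC25A10 (Entrez gene 1468), which exchanges malate and succinate for phosphate, read 170.2, 237, 193 and 220.3 in high Myc, 193, 231 and 179 in low Myc and 98.3 and 119 in no Myc, with no overlap against no Myc. It rose by 0.91 ± 0.16 in log2 in high Myc (adjusted p = 0.00338) and by 0.88 ± 0.17 in low Myc (adjusted p = 0.00682), and the low Myc call was lost once the library labelled no Myc replicate 1 was left out (0.0765 as adjusted p). SLC25A11 (Entrez gene 8402), the oxoglutarate carrier of the malate-aspartate shuttle, read 574, 752, 556 and 655 in high Myc, 852, 1002 and 622 in low Myc and 442 and 426 in no Myc. All high and low Myc arrays again exceeded both no Myc arrays. It rose by 0.90 ± 0.20 in low Myc (adjusted p = 0.0133), a call lost when either no Myc array was left out, and both of its probe sets were called. In high Myc its difference was 0.54 ± 0.19 (adjusted p = 0.0819). High against low Myc gave -0.36 (adjusted p = 0.339), so the 2 Myc groups were not shown to differ. The citrate carrier SLC25A1 read 399.7 to 663 in high Myc, 294 to 609 in low Myc and 491 to 507 in no Myc and passed nowhere. SLC25A21, the oxodicarboxylate carrier, lay near the lowest intensities on all arrays, at 11.5 to 12.995.

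Iron and glutathione carriers numbered 4, and SLC25A37 alone passed a test. SLC25A37 (Entrez gene 51312, mitoferrin 1), an iron importer known from developing red cells, read 452, 325, 400.0 and 386 in high Myc, 245, 279 and 236 in low Myc and 247 and 203 in no Myc. The high Myc arrays stood above all others, and low and no Myc overlapped. The log2 difference was 0.79 ± 0.15 against no Myc (adjusted p = 0.00415, or 0.0507 without no Myc replicate 2) and 0.62 ± 0.13 against low Myc (adjusted p = 0.0384). The second was lost in 7 of the 9 fits without 1 array, all but those that left out replicate 2 of high Myc or of low Myc, and over all probe sets it had an adjusted p of 0.0574. Of its 10 probe sets, 4 were called higher with high Myc than with no Myc, and the range was 0.06 to 1.33 in log2. Mitoferrin 2, SLC25A28, read 282 to 341 in high Myc, 264 to 331 in low Myc and 319.6 to 328 in no Myc. The glutathione carriers SLC25A39 and SLC25A40 differed from no Myc by 0.71 and 0.35 in high Myc (adjusted p = 0.0821 and 0.5) and by 0.57 and 0.84 in low Myc (adjusted p = 0.209 and 0.0817). A second probe set of SLC25A40 passed in low Myc, at 0.61 (adjusted p = 0.0355 over all probe sets).

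The 5 remaining genes have no settled substrate or, like SLC25A46, an outer membrane protein tied to mitochondrial shape, another role. SLC25A35 fell in high Myc. It read 240.5, 213, 215 and 275 in high Myc, 253, 209 and 268 in low Myc and 307 and 383 in no Myc, and neither Myc group overlapped with no Myc. Its log2 difference was -0.55 ± 0.15 in high Myc (adjusted p = 0.03), lost without high Myc replicates 1, 2 or 3 or no Myc replicate 2, and -0.51 in low Myc (adjusted p = 0.0597). With the median of its probe sets it gave -0.37. SLC25A43, SLC25A46, SLC25A53 and SLC25A34 differed by 0.80, 0.48, 0.31 and -0.34 in high Myc and did not pass.

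Taken by probe set, 20 of the 96 (20.8%) were higher with high Myc than with no Myc and 3 (3.12%) lower, against 9.24% and 7.79% of all 54675 probe sets. In low against no Myc 13 (13.5%) were higher and 2 (2.08%) lower, against 6.73% and 7.66%. High against low Myc had 0 calls by limma, against 1.04% higher and 0.525% lower over all probe sets. At an unadjusted p under 0.05, 13 of the 96 were higher and 7 lower, and the share over all probe sets at that threshold was not computed. Both probe sets of SLC25A3, SLC25A12, SLC25A15 and SLC25A17 were called higher with high Myc than with no Myc. No gene had probe sets called in opposite directions. Without no Myc replicate 2, 9 probe sets were higher in high Myc, and 3 were higher in low Myc once the library labelled no Myc replicate 1 was left out.

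**Figure D3:**
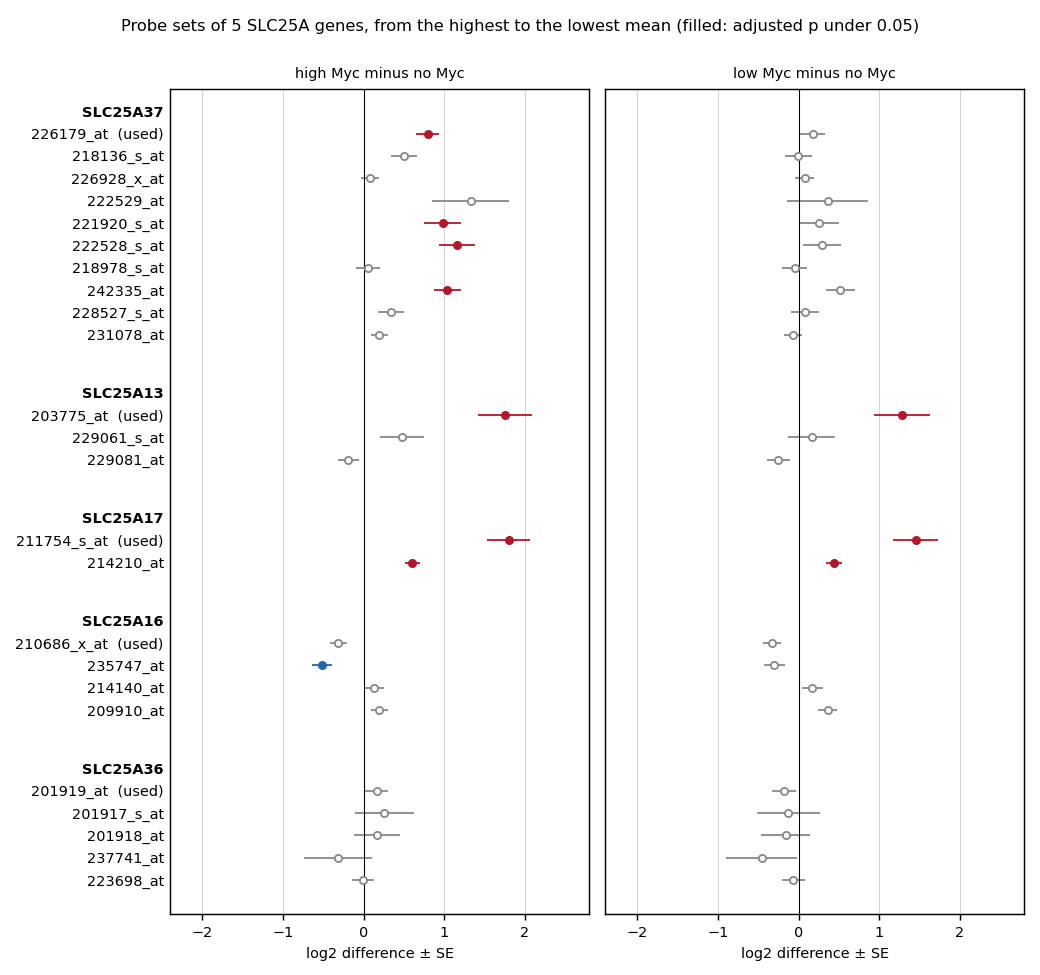
Differences in log2 units with standard errors for each probe set of SLC25A37, SLC25A13, SLC25A17, SLC25A16 and SLC25A36, 5 carriers with several probe sets, ordered within a gene by mean intensity, for high minus no Myc and low minus no Myc. Points are filled where the adjusted p over all probe sets was under 0.05. The probe sets of SLC25A37 spread from 0.06 to 1.33 in high minus no Myc and those of SLC25A13 from -0.19 to 1.76.

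For the pathway around the carriers, 4 further lists, chosen with earlier results of these data known, were read in the same gene fit. Family members with other symbols were 5, of which 1 rose and 1 fell in both comparisons with no Myc, with medians of -0.10 and -0.04. MTCH2, an outer membrane insertase, rose in high Myc (1.43) and in low Myc (1.24), or by 0.80 and 0.52 where probe sets that can match several transcripts were avoided. UCP2, the uncoupling protein of immune cells, read 2273, 1477, 1500.3 and 2194 in high Myc, 2812, 1886 and 2023 in low Myc and 8964 and 6992 in no Myc, with no overlap against no Myc. It fell by 2.12 ± 0.24 in log2 in high Myc (adjusted p = 0.000381) and by 1.84 ± 0.25 in low Myc (adjusted p = 0.00143). UCP1, UCP3 and MTCH1 passed nowhere.

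Genes of the import route of the carriers were higher in high and low Myc, in a list chosen with earlier results of these data known. Over all genes, 14.2% were higher in high Myc and 11.3% in low Myc. Of the 10 import genes, 9 were higher in both high and low Myc than in no Myc and 0 lower, with median differences of 1.32 and 1.09. The count in each was 8 under both other choices of probe set, and in low Myc it was 7 when a no Myc array or low Myc replicates 1 or 2 were left out, 1 at a time. TIMM13, a small chaperone of the space between the membranes, read 1736, 1741, 1839.6 and 1677 in high Myc, 990.2, 1392 and 703 in low Myc and 293 and 298 in no Myc. No groups overlapped, and it rose by 2.57 ± 0.22 in high Myc (adjusted p = 0.000145) and by 1.74 ± 0.23 in low Myc (adjusted p = 0.00126). The receptor TOMM70 rose by 1.40 and 0.96 in the same comparisons, and TIMM22, the channel of the complex, by 1.33 and 1.13. AGK, a lipid kinase that is also a subunit, rose by 1.002 and 1.29, and TIMM10, a chaperone, by 1.37 and 1.05. TIMM10B, at 0.14 in high Myc, did not pass. The calls of TIMM13 and TIMM22 depended on the probe set. Where probe sets that can match several transcripts were avoided, TIMM13 differed by 0.06 in high Myc and 0.04 in low Myc (adjusted p = 0.791 and 0.891). With the median of its probe sets, TIMM22 differed by 0.50 and 0.49 (adjusted p = 0.0556 and 0.087).

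Other transporters of the mitochondrial membranes were 21 measured of 23 listed, of which 8 rose and 1 fell in high Myc and 8 rose and 2 fell in low Myc, with medians of 0.32 and 0.25. The share higher was 38.1% in each, against 14.2% and 11.3% of all genes. The shares lower were 4.76% and 9.52%, against 9% and 8.55%. SFXN4, a sideroflexin tied to complex I assembly, rose by 2.67 in high Myc and 1.67 in low Myc, the serine carrier SFXN1 by 1.61 and 1.54, and ABCB10, an inner membrane transporter linked to haem synthesis, by 2.05 and 1.94. The pyruvate carrier subunit MPC1 rose by 1.84 in low Myc (adjusted p = 0.00598) and differed by 0.91 in high Myc (adjusted p = 0.0862). Without no Myc replicate 1 the low Myc calls of SFXN4 and MPC1 were lost (adjusted p = 0.0648 and 0.072), and with the median of probe sets SFXN4 differed by 1.67 and 0.97 and MPC1 by 0.94 in low Myc. The porins VDAC2 and VDAC3 rose by 1.25 and 0.96 in high Myc and by 0.996 and 0.99 in low Myc. VDAC1 rose by 1.32 and 1.36, but where probe sets that can match several transcripts were avoided it differed by 0.31 and 0.38 and was not called (adjusted p = 0.124 and 0.0773). SMDT1, a subunit of the calcium uniporter, was called lower by a small margin, at -0.46 in high Myc (adjusted p = 0.0306) and -0.45 in low Myc (adjusted p = 0.0454). These calls were lost in 4 and 6 of the 9 fits without 1 array, and the high Myc call also with both other choices of probe set (adjusted p = 0.0849 and 0.089). MCUB, an inhibitory subunit of it, fell by 1.02 in low Myc, lost in 2 of those fits, and was 0.96 higher in high than in low Myc, a call lost in 8 of the 9 fits without 1 array.

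Enzymes that make or use what the carriers move were 30 measured of 35 listed, and 17 rose in high Myc and 12 in low Myc, with 0 falling and medians of 0.68 and 0.49. The shares higher were 56.7% and 40%, against 14.2% and 11.3% of all genes. OAT, which uses ornithine, read 1067, 1160.0, 1219 and 1022 in high Myc, 683, 937 and 467 in low Myc and 260.4 and 238 in no Myc. No groups overlapped, as for SLC25A15, and it rose by 2.16 ± 0.23 in high Myc (adjusted p = 0.000313) and by 1.43 ± 0.24 in low Myc (adjusted p = 0.0036). The mitochondrial RNA polymerase POLRMT, which uses pyrimidine nucleotides, rose by 2.05 and 1.42 in the same comparisons. Neither POLRMT call was kept with other choices of probe set. It differed by 0.35 and 0.21 with the median of its probe sets, and by -0.11 in both comparisons where probe sets that can match several transcripts were avoided. The same held for FECH, which rose by 1.03 and 0.96. With these choices FECH differed by 0.30 and 0.27, and by -0.07 and 0.03. The low Myc call of MDH2 (1.11) was lost where such probe sets were avoided (0.40, adjusted p = 0.203). GOT2, of the malate-aspartate shuttle, rose by 1.75 and 1.30, and the folate enzymes SHMT2 and MTHFD2L by 1.61 and 2.29 in high Myc. The MTHFD2L call was lost with the median of its probe sets (0.39, adjusted p = 0.111). MAT2A, which makes S-adenosylmethionine, rose by 1.03 in high Myc. The calls of MTHFD2L and MAT2A were also lost without no Myc replicate 2 (adjusted p = 0.06 and 0.0597). CPT1A, which makes acylcarnitines, and NADK2, the mitochondrial NAD kinase, were 1.08 and 0.96 higher in high than in low Myc (adjusted p = 0.039 and 0.0418), calls that were lost in 7 and 8 of the 9 fits without 1 array. With the median of its probe sets the CPT1A difference was 0.18. In low against no Myc, 7 enzymes were higher once the library labelled no Myc replicate 1 was left out.

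**Figure D4:**
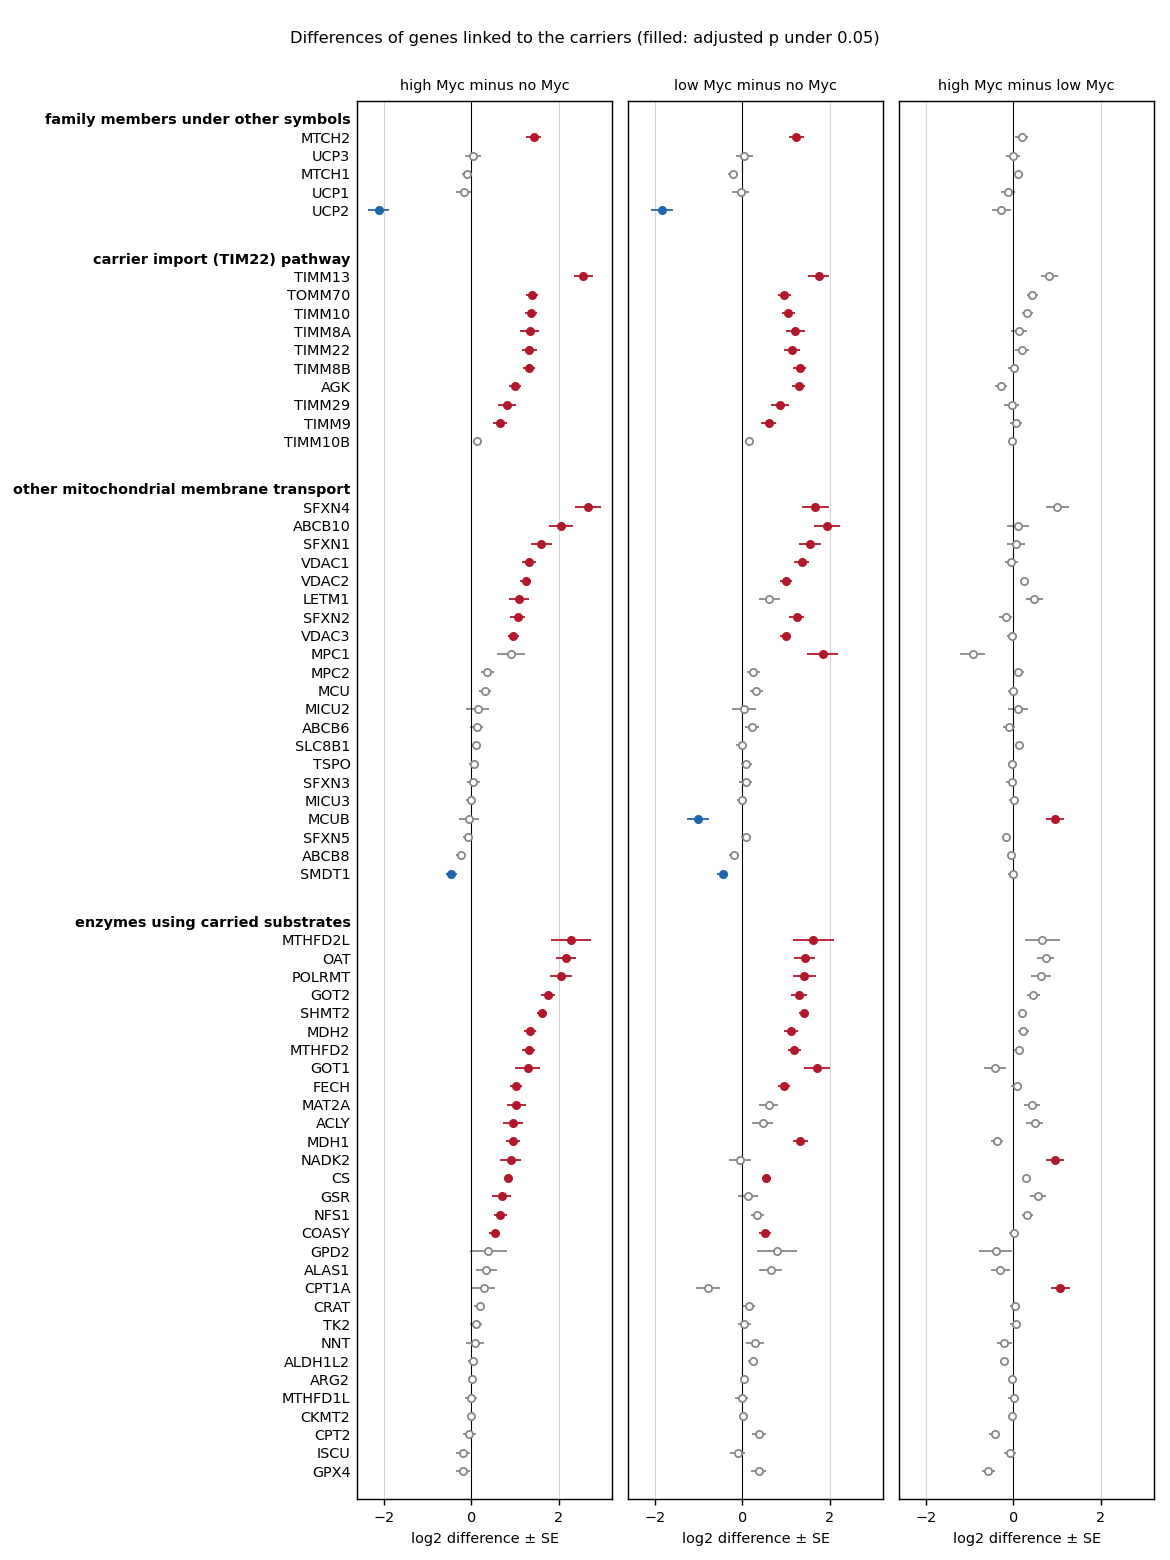
Differences in log2 units with standard errors for 66 genes linked to the carriers, in 4 lists, for high minus no Myc, low minus no Myc and high minus low Myc. Filled points passed an adjusted p of 0.05, red for higher and blue for lower. In the import list 9 of 10 genes are filled and to the right of 0 in both comparisons with no Myc, and UCP2 lies farthest to the left, at -2.12 and -1.84. The lists were chosen with earlier results of these data known.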

How the data were processed

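Per the labels' protocols, RNA came from the Qiagen RNeasy kit and carried a biotin label. The authors deposited 1 intensity per probe set and array, on a linear scale and summarised by RMA, per the submitters' processing notes (its version is not given in the sources used here). This method makes array distributions alike, so a change in total RNA per cell cannot be seen.

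Groups followed the labels. Of 54675 probe sets, 41097 had 1 gene symbol, 1801 several and 11777 none, and 41043 symbols were updated through the Entrez identifier. The log2 of the deposited intensity was fitted with limma 3.58.1 in R 4.3.3 (lmFit, eBayes without trend, all 9 arrays, 6 residual degrees of freedom), on all genes and separately on all probe sets. Tests were two-sided, with Benjamini-Hochberg adjustment over the whole table in each of 3 comparisons, with calls at an adjusted p under 0.05. The number of arrays limits the precision. No detection calls were used, and 3 carriers (SLC25A21, SLC25A31, SLC25A53) had a mean log2 under 5.

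Every carrier is accounted for. Values on each array were given for the 6 called carriers with the largest differences in each direction and comparison, the main ADP/ATP and phosphate carriers, and genes with probe sets of opposite sign of which 1 was called. The rule also allowed up to 6 called genes of each further list, but array values were printed for UCP2, TIMM13 and OAT alone. SLC25A12, SLC25A24, SLC25A31, SLC25A51 and the ranges of other carriers were added after their values were seen. The members, role groups and lists were chosen with earlier results of these data known. The fit was tested on 20 simulated sets of 19775 genes for the comparison of high with no Myc. It recovered a share of 0.68 of 2-fold and 0.947 of 4-fold changes. On average a share of 0.054 of its calls was false. The sets had independent normal noise and far fewer changed genes than were called in these data, so the shares need not hold here. Alternatives were quantile normalization repeated, median centring, a filter at a mean log2 of 5, other choices of probe set, a trended prior, array weights, 2-group fits, stricter thresholds, a replicate block and fits that left out 1 array each. A fit without low Myc replicate 3 and no Myc replicate 1 together was added after the data were seen.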

Additional observations from a re-analysis of the deposited data

Results flagged for a closer look

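In the high Myc group, which was the 1 group of at least 4 arrays, 1 array stood far from the other 3 for 4 of the 45 carriers. The measure is the gap to the nearest other array divided by the range of the group, in log2 intensity. Chance passes its 95% limit in about 1 of 20 groups. The ratio was computed for the carriers alone, so the share over all genes is not known. For SLC25A36 high Myc replicate 3 was the highest, with a ratio of 0.924 (log2 intensity 10.10 against 9.94 on the nearest array). For SLC25A15 the same array was the highest, with a ratio of 0.875 (8.80 against 8.51). For SLC25A14 high Myc replicate 4 was the highest, with a ratio of 0.852 (7.85 against 7.69). For SLC25A47 high Myc replicate 1 was the lowest, with a ratio of 0.8291 (5.75 against 6.16). Of these genes only SLC25A15 was called in a comparison, and its difference between high and no Myc ran from 1.16 to 1.31 when each array was left out.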

How the results depend on the processing

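No carrier that was called changed sign under any alternative run. Among genes of the further lists named above, POLRMT and FECH did, and so did the marker CD79B. Leaving out each array in turn, carriers higher in high than in no Myc numbered 10 to 16 and lower 0 to 3, in low against no Myc 4 to 14 and 0 to 1, and in high against low Myc 0 to 3 and 0. Probe sets numbered 9 to 24 and 1 to 3, 3 to 18 and 0 to 2, and 0 to 1 and 0 in the same order. The further lists numbered 27 to 37 and 1 to 2, 21 to 39 and 1 to 4, and 0 to 7 and 0 to 2.

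Over all 19775 genes, 4584, 3919 and 712 were called in high against no, low against no and high against low Myc, in either direction. At least 2-fold they numbered 2230, 1913 and 328, and at an adjusted p under 0.01 they numbered 3048, 2188 and 143. Array weights gave 5100, 4570 and 1684, and fits of only the 2 groups compared 4800, 2925 and 406. Where probe sets that can match several transcripts were avoided they numbered 4179, 3488 and 645. At least 2-fold, 6 carriers were higher and 0 lower in high against no Myc, 4 and 0 in low against no Myc, and 0 higher in high against low Myc. At an adjusted p under 0.01 there was 1 lower in the first comparison, 5 higher and 0 lower in the second, and 0 higher in the third. With array weights 4, 2 and 2 were lower in the 3 comparisons. Fits of only the 2 groups compared gave 6 higher and 0 lower in low against no Myc and 0 higher in high against low Myc, and 3 lower in high against no Myc. Preferring probe sets without a cross-matching suffix gave 3 lower in high against no Myc and, with SLC25A3 and SLC25A23 lost, 8 higher in low against no Myc. In high against low Myc, median centring and the trended prior each gave 1 higher, and the median of probe sets 0. Without low Myc replicate 3 and no Myc replicate 1 together, a choice made after seeing the data, high against no Myc gave 11 higher, low against no Myc 10 higher and 0 lower, and high against low Myc 0 higher.

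For the further lists, high against no Myc had 4 lower with quantile normalization repeated, and 1 with the median of probe sets, without suffixed probe sets, at 0.01, at 2-fold and without both doubted libraries. Low against no Myc had 1 lower at 0.01, and 2 at 2-fold, with 2 groups, after quantile normalization, with the trended prior and without both doubted libraries. High against low Myc had 8 higher with array weights, 1 at 2-fold and without both doubted libraries, and 0 at 0.01, with the median of probe sets and with 2 groups. There 3 were lower with array weights, 2 after quantile normalization and 1 without both doubted libraries. Among probe sets, quantile normalization gave 1 higher in high against low Myc and 2 lower in high against no Myc.

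The labels share replicate numbers, but deviations of same-numbered high and low Myc arrays correlated at 0.25, 0.03 and -0.31, those of high and no Myc arrays at 0.45 and 0.07, and those of low and no Myc arrays at 0.47 and 0.10. Not every pair was over 0.1, so the numbers were not taken as pairs in the reported fit. The replicate 1 pairs were all positive (0.25, 0.45 and 0.47). The 2 no Myc arrays deviate from their mean by equal and opposite amounts, so the check cannot settle whether the numbers mark pairs. With the replicate block, 15 carriers were higher and 0 lower in high against no Myc, 10 and 0 in low against no Myc, and 0 in high against low Myc. Over all genes the block called 4023, 3474 and 154 in the same order, in either direction. The block gave 0 probe sets lower in both comparisons with no Myc, and for the lists 1 lower in high against no Myc, 2 in low against no Myc and 1 higher in high against low Myc.

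No statement on presence is made for genes near the lowest intensities, and the 2 no Myc arrays, of which 1 read MYC above every low Myc array, set the precision of both comparisons with no Myc. The 3′ minus 5′ signal of GAPDH was 0.01 to 0.24 in log2 on the 7 high and low Myc arrays and 0.25 and 0.42 on the no Myc arrays. For ACTB it was -0.07 to 0.19 and 0.00 and -0.01. Their part in the results was not tested.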
